A study of Mus musculus with 36 samples.

Results

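The enzymes described here reduce carbonyl groups or oxidize aldehydes and other foreign compounds in the mouse lung. The set holds 10 genes chosen by symbol for these roles, out of 19938 genes with their own probe set on the array: the carbonyl reductases Cbr1, Cbr2 and Cbr3, the ketone reductase Hsd11b1, the aldehyde oxidases Aox1 and Aox3, the aldehyde dehydrogenases Aldh1a1 and Aldh3a1, the flavin monooxygenase Fmo2 and the epoxide hydrolase Ephx1. Each had 1 probe set with 1 symbol, and all 10 lay above the limit for dim genes.

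Lung RNA of the strains A/J and C3H was measured on 36 Affymetrix arrays, 2 for each of 18 groups of strain, treatment and week. Treated mice were injected with the tobacco-specific nitrosamine NNK at 100 mg/kg in 4 weekly doses, and their lungs were taken at weeks 3, 6, 9 and 12. Untreated lungs of both strains were taken at weeks 0, 3, 6, 9 and 12. No other allele or agent is named for any group. The labels give neither age nor sex, and do not say if both arrays of a group are different mice. The p-values therefore measure only how far these arrays differ, and that spread may be technical. Each RNA came from lung tissue as a whole, so fewer cells of a type and less RNA per cell cannot be told apart.

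NNK carries a ketone. Carbonyl reductases and Hsd11b1 can reduce it to the alcohol NNAL, which can be conjugated and excreted, while cytochrome P450 enzymes hydroxylate NNK to unstable products that alkylate DNA and release aldehydes. Aldehyde oxidases and aldehyde dehydrogenases turn aldehydes into acids, Fmo2 oxygenates nitrogen and sulfur compounds in the lung, and Ephx1 opens epoxides with water. Much of this metabolism is known from club cells of the airways and from alveolar type 2 cells.

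Levels are log2 values after normalization, and a difference of levels is a log2 change. The arrays held high levels of lung genes: the means of Sftpc (alveolar type 2 cells), Scgb1a1 (club cells) and Ager (alveolar type 1 cells) were 13.97, 13.76 and 13.32. The median deposited intensity of an array ran from 285 to 347. In 3 untreated A/J arrays, both of week 6 and array 2 of week 0, the cornified skin gene Lor lay between 12.74 and 13.65. It was under 10 in the other arrays. The week 6 arrays also had high Krt1 (14.4 and 14.8), Krt10 (11.5 and 12.1) and Hrnr (12.4 and 12.9) of the cornified skin list. Array 2 of week 0 did not, with Krt1 at 9.27, Krt10 at 8.1 and Hrnr at 8.19. Both untreated arrays of week 6 in A/J are among the 3 arrays of high Lor, so the A/J changes at week 6 have no value without them. Fits without the 3 arrays leave week 6 out of the A/J NNK change, which then averages weeks 3, 9 and 12. They also leave week 6 out of the A/J trend, the untreated strain difference and the difference in NNK change.

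After NNK, 2 of the 10 genes changed in A/J lungs: Aox3 fell and Ephx1 rose. Of all 14953 genes tested 10% changed in this comparison, 7.44% upward and 2.60% downward, so 1 of 10 in each direction stands beside those shares. Without the 3 arrays of high Lor, 638 genes changed in place of 1502, and Aox3 and Ephx1 still passed with -0.44 and 0.28 (limma adjusted p = 0.00066 and 0.000602). In C3H lungs the same 2 genes had the largest differences of the 10 and the same directions, and neither passed after adjustment. Among the 10 the median change was -0.01 in A/J and -0.03 in C3H, against 0.01 and -0.01 over all genes.

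The promoters of these 2 genes are shown because they are the members that moved with NNK. RefSeq sequence of GRCm38.p6 covers the 250 bases before each start, 5′ to 3′ on the gene's own strand, with matches to the xenobiotic response element core GCGTG in capitals. The Aox3 window is chr1:58112886-58113135 on the plus strand and the Ephx1 window is chr1:181017570-181017819 on the minus strand.
Aox3: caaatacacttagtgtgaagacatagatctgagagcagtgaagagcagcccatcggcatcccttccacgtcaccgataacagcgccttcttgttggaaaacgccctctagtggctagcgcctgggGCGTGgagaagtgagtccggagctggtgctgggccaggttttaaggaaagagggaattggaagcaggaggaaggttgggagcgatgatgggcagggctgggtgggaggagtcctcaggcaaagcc
Ephx1: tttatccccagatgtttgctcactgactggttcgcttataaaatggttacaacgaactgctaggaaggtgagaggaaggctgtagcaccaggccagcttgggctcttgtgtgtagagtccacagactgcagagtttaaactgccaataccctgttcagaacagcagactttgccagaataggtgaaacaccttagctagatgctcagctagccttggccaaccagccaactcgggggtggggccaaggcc

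Promoter windows were found for 9 of the 10 genes, 11 windows in all, and Aldh3a1 was not among them. GCGTG, searched on both strands, was found in the windows of 4 members, Aox1, Aox3, Hsd11b1 and Cbr1, and in 28.2% of 32851 promoter windows of the same length. The antioxidant response element TGACNNNGC, also searched on both strands, was found in the window of Hsd11b1 and in 10.2% of all windows. In Aox3 the core begins 125 bases before the start. The Ephx1 window held neither set of letters, and a match or its absence here describes letters only.

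Aox3 (probe set 10346410) encodes an aldehyde oxidase, a molybdenum enzyme that oxidizes aldehydes and many nitrogen heterocycles. In untreated A/J lungs its level was 11.46 and 11.41 at week 3, 11.29 and 11.27 at week 6, 11.29 and 11.41 at week 9, and 11.52 and 11.42 at week 12. In NNK-treated A/J lungs, Aox3 was 10.92 and 10.97, 10.50 and 11.02, 10.92 and 10.72, and 11.27 and 11.09 at the same weeks. Both NNK arrays lay below both untreated arrays in each of the 4 weeks. The level went from 11.38 ± 0.09 to 10.93 ± 0.23 (SD, n = 8 arrays each), a fall by 0.46 ± 0.06 (SE) or 1.37-fold (limma adjusted p = 1.28e-05). The lowest value was 10.50 in array 1 of week 6, whose partner array was at 11.02.

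By week, the A/J change in Aox3 was -0.49 at week 3, -0.52 at week 6, -0.53 at week 9 and -0.29 at week 12 (limma adjusted p = 0.0513, 0.00919, 0.0207 and 0.504). The changes of weeks 6 and 9 passed. That of week 3 passed in 5 fits without 1 array (adjusted p from 0.0042 to 0.042) and under 3 other settings: trended robust variances, the array median as a covariate, and a filter at the 50th percentile (adjusted p = 0.029, 0.0294 and 0.0393). The week 6 call was lost without NNK array 1 (-0.26, adjusted p = 0.147) or untreated array 1 of that week (-0.51, adjusted p = 0.0962). The week 9 call was lost without NNK array 2 (-0.44, adjusted p = 0.28) or untreated array 2 (-0.47, adjusted p = 0.165). The moderated F test for a difference among the 4 weekly changes did not pass (adjusted p = 0.677).

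In C3H the Aox3 level was 11.14 and 11.12, 11.31 and 11.32, 11.39 and 11.35, and 11.16 and 11.22 in untreated lungs at weeks 3, 6, 9 and 12. With NNK it was 10.67 and 10.89, 11.13 and 11.08, 11.02 and 11.14, and 11.09 and 10.98. Again both NNK arrays lay below both untreated arrays in all 4 weeks. The mean difference was -0.25 ± 0.06 (SE), with levels of 11.25 ± 0.10 and 11.00 ± 0.16 (SD, n = 8 each), and did not pass (limma adjusted p = 0.117). With the 18 C3H arrays fitted alone it passed (adjusted p = 0.0102), as it did with array weights (adjusted p = 0.0154). It also passed without either NNK array of week 6 in A/J (adjusted p = 0.00988 for each) or NNK array 2 of week 3 in C3H (adjusted p = 0.0491). Leaving out an A/J array does not move the C3H difference. It moves only the p-value, through the spread shared by all groups and the adjustment over all genes. Of all genes 1.13% differed between the strains in their NNK change, and limma called 0 of the 10 members. At an unadjusted p under 0.05 there were 2 members and 2715 genes. The difference in Aox3 was -0.21 ± 0.08, with a 95% interval from -0.37 to -0.05, and did not pass (adjusted p = 0.16). Without NNK array 2 of week 6 in A/J that difference was -0.27 and passed (adjusted p = 0.0203), and without the 3 arrays of high Lor it was -0.18 (adjusted p = 0.51).

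Ephx1 (probe set 10360684), the microsomal epoxide hydrolase, moved the other way. Its untreated A/J level was 11.43 and 11.53 at week 3, 11.68 and 11.74 at week 6, 11.74 and 11.74 at week 9, and 11.79 and 11.84 at week 12. With NNK it was 11.97 and 12.04, 11.98 and 12.27, 11.96 and 11.93, and 11.92 and 11.92. Both NNK arrays lay above both untreated arrays in each week. The level went from 11.69 ± 0.14 to 12.00 ± 0.12 (SD, n = 8 each), a rise of 0.31 ± 0.03 (SE) or 1.24-fold (limma adjusted p = 4.87e-06).

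The A/J rise in Ephx1 was 0.53 at week 3 (limma adjusted p = 0.000291) and 0.41 at week 6 (adjusted p = 0.00154), while the values at weeks 9 and 12, 0.20 and 0.11, missed the threshold (adjusted p = 0.118 and 0.808). The NNK-treated level stayed within 11.92 to 12.27 while the untreated level went from 11.43 at its lowest to 11.84 at its highest. The moderated F test for a difference among the weeks did not pass (adjusted p = 0.0992). It called 0 of the 10 members and 0.221% of all genes in A/J, with 3 members and 2326 genes at an unadjusted p under 0.05. With untreated array 1 of week 9 or either NNK array of week 6 left out it called 1 member. Of all genes 0.354% changed in A/J at week 3 (0.288% upward, 0.0669% downward), 7.27% at week 6 (4.36% and 2.91%), 1.54% at week 9 (1.17% and 0.375%) and 0.0736% at week 12. At week 6 both untreated arrays are those of high Lor, and 5 of 5 cornified skin markers fell (median -5.20) while 6 of 6 neutrophil markers and 7 of 12 ciliated cell markers rose (medians 1.38 and 0.37). Their part in the week 6 changes was not tested. The members that changed were Ephx1 at week 3, Ephx1 and Aox3 at week 6, and Aox3 at week 9.

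In C3H the Ephx1 level was 11.84 and 11.89, 11.83 and 11.83, 11.87 and 12.01, and 11.93 and 11.96 in untreated lungs, and 12.03 and 12.10, 12.04 and 12.07, 12.03 and 12.04, and 12.06 and 11.97 with NNK. Both NNK arrays lay above both untreated arrays in all 4 weeks, by a small margin at weeks 9 and 12. The mean difference was 0.15 ± 0.03 (SE), from 11.89 ± 0.06 to 12.04 ± 0.04 (SD, n = 8 each), and did not pass (limma adjusted p = 0.155). It passed with array weights (adjusted p = 0.0189) and without either NNK array of week 6 in A/J (adjusted p = 0.0187 for each). The strains' NNK changes in Ephx1 differed by 0.17 ± 0.05, with a 95% interval from 0.06 to 0.27, which did not pass (adjusted p = 0.0886). It passed without untreated array 2 of week 3 in A/J (0.18, adjusted p = 0.0348) or NNK array 1 of week 6 in A/J (0.20, adjusted p = 0.0167). Without the 3 arrays of high Lor it was 0.16 (adjusted p = 0.331).

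**Figure D1:**
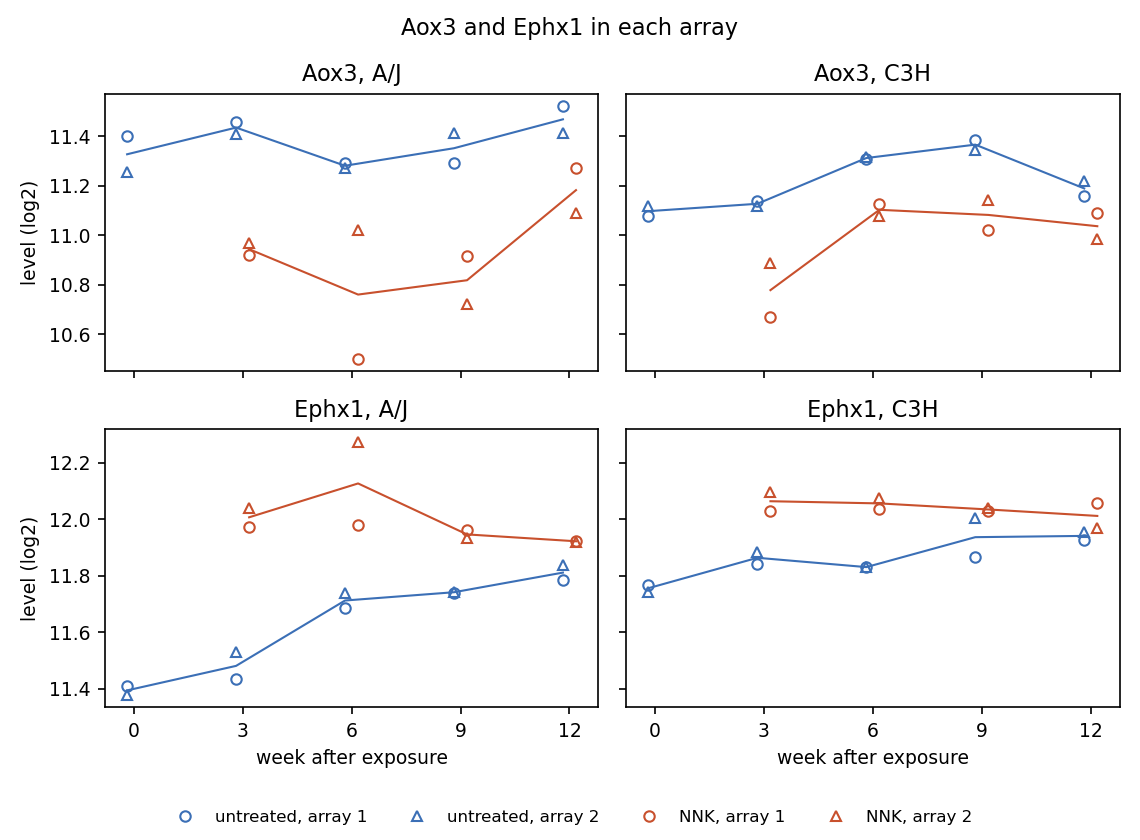
Level (log2) of Aox3 (top) and Ephx1 (bottom) in each array against the week after exposure, A/J left and C3H right. Circles and triangles are arrays 1 and 2, blue untreated and red NNK, and lines join the means of 2 arrays; NNK arrays lie below the untreated ones for Aox3 and above them for Ephx1 in every week of both strains.

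Genes with this complete separation were few. In A/J 0.535% of all tested genes had both NNK arrays below both untreated arrays in all 4 weeks, and 1.67% had them above. In C3H the shares were 0.308% and 0.375%. In both strains at once, 7 of 14953 genes lay below (0.0468%), among them Aox3, and 11 lay above (0.0736%), among them Ephx1. The other genes above were Acot7, Ces1g, Cxcl17, Ddit4l, Dglucy, Gsto1, Mdm2, Muc4, Pidd1 and Psrc1. Of these, Mdm2, Pidd1 and Psrc1 are known p53 targets, and a part of p53 in the Ephx1 change was not tested. This measure was chosen after the values had been seen.

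The other 8 members did not pass for NNK in either strain. In C3H limma called 0 of the 10 and 0.0803% of all genes, 0.0401% in each direction; at an unadjusted p under 0.05 there were 2 members and 936 genes (6.26%). Cbr3, a carbonyl reductase of quinones and ketones, was nearest in A/J with 0.14 ± 0.06 (SE, limma adjusted p = 0.165), and it was higher with NNK in 4 of 4 weeks. Without untreated A/J array 2 of week 3 that value was 0.19 and passed (adjusted p = 0.0185), without array 1 of that week it was 0.08 (adjusted p = 0.434), and with the array median as a covariate it was also 0.08 (adjusted p = 0.268). For the reductases that act on the NNK ketone the 95% intervals of the change were -0.13 to 0.14 for Cbr1, -0.05 to 0.09 for Cbr2 and -0.09 to 0.05 for Hsd11b1 in A/J. In C3H they were -0.19 to 0.07, -0.10 to 0.04 and -0.13 to 0.00. The C3H interval of Cbr1 includes a fall as large as the C3H difference in Ephx1. The A/J interval of Cbr1 ends just short of that size in both directions. Cbr2 is among the brightest genes, where quantile normalization sets a level by rank, so the same values recur between arrays and its interval does not show stability. On the deposited scale its A/J value was -0.05 (limma adjusted p = 0.278). By week in C3H, limma called 0 members each time, against 0.0936% of all genes at week 3 (0.0268% upward, 0.0669% downward), 0.0134% at week 6, all upward, and 0 genes at weeks 9 and 12. At an unadjusted p under 0.05 there were 4, 1, 1 and 0 members and 2125, 611, 281 and 182 genes at these weeks.

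Among the oxidizing enzymes Aox1 had -0.07 ± 0.04 in A/J and -0.02 ± 0.04 in C3H, Aldh1a1 0.04 ± 0.03 and 0.05 ± 0.03, and Fmo2 -0.04 ± 0.04 and 0.01 ± 0.04 (SE). Aldh3a1 had -0.03 ± 0.14 and -0.08 ± 0.14, the widest error of the 10. All groups share a single spread per gene, and the residual SD of Aldh3a1 was 0.427 in A/J and 0.077 in C3H. The C3H error thus owes much to A/J arrays. Aox1 and Aox3 lie side by side on chromosome 1, followed by Aox4 and Aox2, whose mean levels of 7.12 and 6.85 were too dim to be tested. The nearby genes Kctd18, Sgo2a, Bzw1 and Clk1 did not pass for NNK in A/J either, with 0.04, 0.28, -0.03 and -0.13 (limma adjusted p = 0.514, 0.0749, 0.518 and 0.0911). At week 3 in A/J, Aldh1a1, which oxidizes retinal and other aldehydes, was 0.24 ± 0.07 higher with NNK, at 12.81 and 12.92 against 12.61 and 12.64, and did not pass (limma adjusted p = 0.118). At week 3 in C3H, Hsd11b1 was at 11.97 and 12.01 with NNK and 12.24 and 12.18 untreated, a difference of -0.23 ± 0.06 that did not pass (adjusted p = 0.152).

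**Figure D2:**
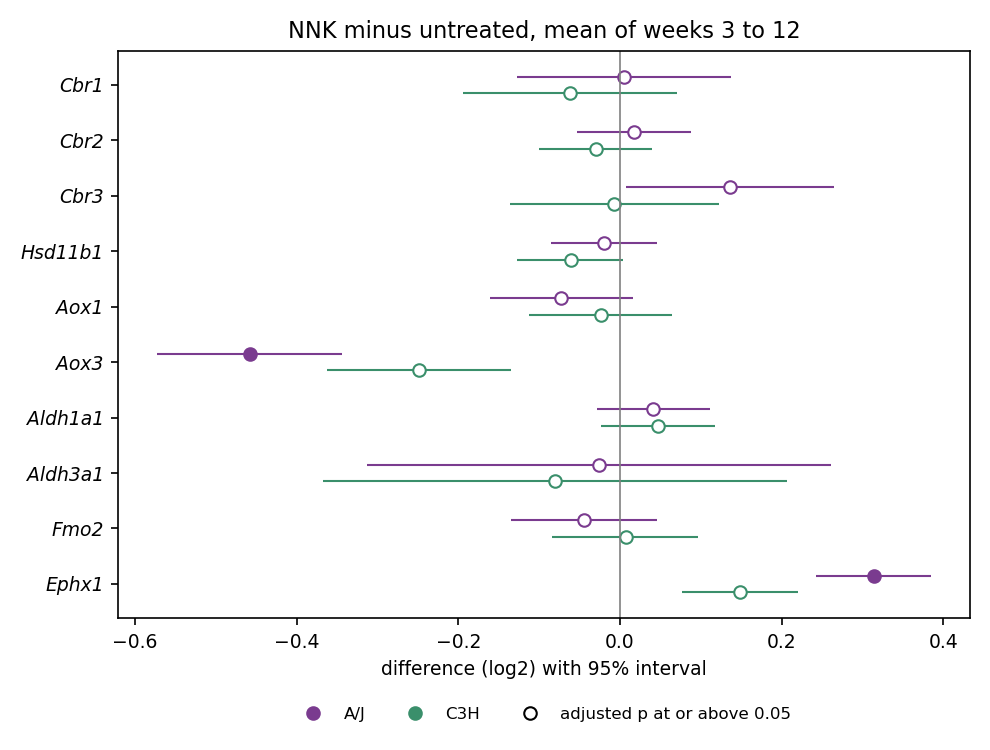
Mean NNK minus untreated difference (log2) over weeks 3 to 12 for each member, A/J in purple and C3H in green, with 95% intervals from the fit; filled points passed at an adjusted p under 0.05. Aox3 at -0.46 and Ephx1 at 0.31 in A/J are the filled points, and the C3H points of both lie on the same side of 0.

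The members' levels rank within the array's genes from the middle to the top. The mean levels of Cbr2, Fmo2 and Aldh1a1 lay at or above the 99.4th percentile of all genes, those of Hsd11b1, Ephx1 and Aox3 between the 92.3rd and 97.7th, and those of Cbr3 and Aldh3a1 near the 41st. Probe sets differ in brightness, so these ranks place no member above another.

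Untreated lungs of both strains differed in 7 of the 10 genes over the 5 weeks, 4 higher and 3 lower in A/J. Strain differences were common on these arrays: 56.1% of all genes passed, 19.8% higher and 36.3% lower in A/J, so a count of 7 in 10 is close to the background. Sequence variants between the strains under the probes were not checked, and their part in any strain difference was not tested. In NNK-treated lungs 5 of 10 passed, 3 higher and 2 lower, against 53.3% of all genes, 23.5% higher and 29.8% lower. The groups share no arrays in these 2 comparisons. Cbr2, Cbr3, Hsd11b1, Aox1 and Aldh3a1 passed in both with the same direction. The share of all genes that did so was not counted, so this is no result about the members as a set.

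Hsd11b1 (10361234), which reduces ketones beside its role in glucocorticoid activation, was lower in A/J. Over 10 untreated arrays each, its lowest, median and highest levels were 11.71, 11.81 and 11.98 in A/J and 11.97, 12.17 and 12.25 in C3H. The ranges overlapped only at their ends. The difference was -0.31 ± 0.03 (SE, limma adjusted p = 5.01e-09) untreated and -0.32 ± 0.03 (adjusted p = 2.3e-08) with NNK, where the 8 A/J arrays (11.65 to 11.95) and the 8 C3H arrays (11.97 to 12.29) did not overlap. Of all genes 15.7% had such separate ranges in NNK-treated lungs.

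Cbr3 (10436978) was higher in A/J, by 0.29 ± 0.06 (SE, limma adjusted p = 0.000105) untreated and 0.53 ± 0.06 (adjusted p = 2.53e-07) with NNK. Untreated A/J levels had a lowest value of 7.88, a median of 8.48 and a highest of 8.71, and C3H levels 8.0, 8.05 and 8.21. The NNK-treated ranges, 8.44 to 8.75 and 7.81 to 8.27, did not overlap. At week 0 the arrays overlapped, with 7.88 and 8.01 in A/J and 8.0 and 8.06 in C3H. The A/J level at later weeks lay above that of C3H apart from array 1 of week 3, with 8.13. The untreated difference includes week 0 and the NNK-treated one does not. Over weeks 3 to 12 the mean untreated levels were 8.48 in A/J and 8.09 in C3H. The strains' NNK changes in Cbr3 differed by 0.14 ± 0.09 (SE), which did not pass (limma adjusted p = 0.403).

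Cbr2 (10393936), the abundant carbonyl reductase of the mouse lung, was slightly lower in A/J, at 13.84 ± 0.09 against 13.96 ± 0.06 (SD, n = 10 each). The difference was -0.12 ± 0.03 (SE, limma adjusted p = 0.00186) and the ranges overlapped. On the deposited scale without normalization it was -0.05 and did not pass (adjusted p = 0.135). In NNK-treated lungs the difference was -0.09 (adjusted p = 0.0364). It fell short of the threshold in 9 of 36 fits without 1 array, and over all 36 it ran from -0.10 to -0.07. Cbr1 did not differ by strain beyond its error, with 0.02 ± 0.06 untreated and 0.08 ± 0.06 with NNK (SE).

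Aox1 (10346374) was higher in A/J by 0.23 ± 0.04 (SE, limma adjusted p = 2.16e-05) untreated and by 0.17 ± 0.04 (adjusted p = 0.00194) with NNK. Its untreated range was 10.06 to 10.37 in A/J and 9.72 to 10.14 in C3H, so the ranges overlapped little. Aox3 was 0.15 ± 0.05 higher in untreated A/J (adjusted p = 0.0106) and 0.07 ± 0.06 lower in NNK-treated A/J, which did not pass (adjusted p = 0.269).

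Ephx1 was lower in untreated A/J, at 11.63 ± 0.17 against 11.87 ± 0.08 in C3H (SD, n = 10 each), by -0.24 ± 0.03 (SE, limma adjusted p = 8.57e-07). In NNK-treated lungs the levels were 12.00 ± 0.12 and 12.04 ± 0.04 (SD, n = 8 each), with a difference of -0.04 ± 0.03 that did not pass (adjusted p = 0.329). Without NNK array 2 of week 6 in A/J this became -0.08 and passed (adjusted p = 0.0303), and for Aox3 the same array moved the NNK-treated difference to -0.14 (adjusted p = 0.00954). Whether the strain difference itself depended on NNK was tested over weeks 3 to 12, as the difference between the strains' NNK changes. That difference did not pass for either gene. The untreated strain differences also cover week 0, so the printed pairs do not subtract to it. Aldh1a1 and Fmo2 did not pass between strains, with -0.02 ± 0.03 and -0.02 ± 0.04 untreated and -0.04 ± 0.03 and -0.07 ± 0.04 with NNK (SE). On the deposited scale both passed as lower in A/J, with -0.09 and -0.10 untreated (adjusted p = 0.00935 and 0.026) and -0.09 and -0.13 with NNK (adjusted p = 0.0176 and 0.0106). Without the 3 arrays of high Lor the 7 untreated strain differences still passed, with Aox3 at 0.22, Cbr3 at 0.24 and Ephx1 at -0.26.

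**Figure D3:**
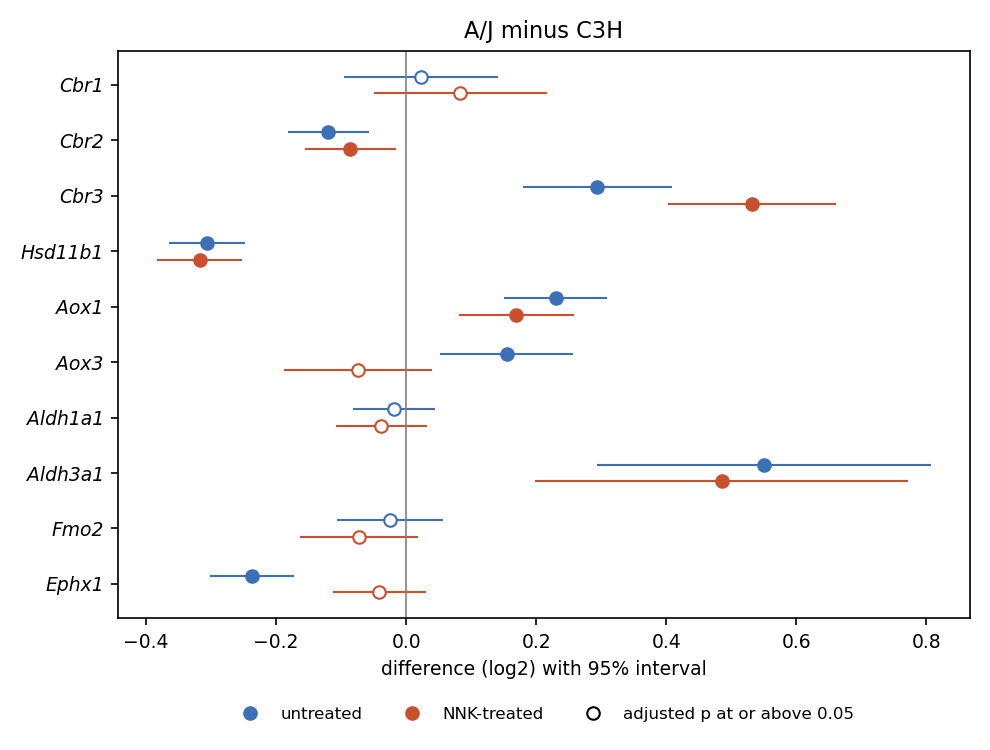
A/J minus C3H difference in level (log2) for each member, untreated lungs in blue over 5 weeks and NNK-treated lungs in red over 4 weeks, with 95% intervals; filled points passed at an adjusted p under 0.05. Hsd11b1 at -0.31 and -0.32 and Cbr3 and Aldh3a1 at 0.29 to 0.55 stand on the same side in both, while Ephx1 at -0.24 and Aox3 at 0.15 passed in untreated lungs only, a contrast not called by the test of the difference.

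Aldh3a1 (10376765), an aldehyde dehydrogenase known from cornea and squamous epithelia, was higher in A/J by 0.55 ± 0.12 (SE, limma adjusted p = 0.000646) in untreated and 0.49 ± 0.14 (adjusted p = 0.00532) in NNK-treated lungs. Its untreated A/J arrays read 8.21 and 9.90 at week 0, 8.53 and 9.02 at week 3, 8.32 and 8.37 at week 6, 8.13 and 8.53 at week 9, and 8.36 and 8.42 at week 12. The untreated C3H arrays lay between 7.84 and 8.18. Array 2 of week 0 stood far above the rest, and the lowest A/J arrays overlapped the C3H range. Through the spread shared by all groups that array also widens the error of the NNK-treated difference. With NNK the A/J range of 8.13 to 8.65 and the C3H range of 7.77 to 8.05 did not overlap.

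That week 0 array also carried genes of squamous epithelium of oesophagus and airway: Krt4 stood at 13.90, Krt13 at 10.66, Sprr3 at 10.84 and Krt5 at 10.22. The highest levels in the other 35 arrays were 7.40 for Krt4, 7.62 for Krt13 and 7.26 for Sprr3. Of the rest of the list, Krt14 (8.84) and Trp63 (8.97) were slightly above the other untreated A/J arrays. Krt15 (8.19) lay within their range. Over the 7 genes of this list the log2 of the summed level ran from 10.44 to 14.37 in untreated A/J, against 10.55 to 10.83 with NNK, 10.59 to 10.67 in untreated C3H and 10.58 to 10.82 in NNK-treated C3H. Without this array the untreated strain difference in Aldh3a1 was 0.38 ± 0.06 (SE, limma adjusted p = 6.8e-06). The week 6 arrays with high Lor had ordinary Aldh3a1 levels.

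Over weeks 0 to 12 in untreated A/J lungs 4 members rose and 1 fell, against 22.8% of all genes, 17.5% upward and 5.27% downward. Cbr3 rose by 0.50 ± 0.11, Ephx1 by 0.44 ± 0.06, Fmo2 by 0.36 ± 0.08 and Aldh1a1 by 0.23 ± 0.06 (SE, limma adjusted p = 0.00369, 7.63e-05, 0.00319 and 0.00979). Aldh3a1 fell by 0.71 ± 0.25 (adjusted p = 0.0421). The median over all genes in this comparison was 0.07, and on the deposited scale it was -0.01.

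The fall of Aldh3a1 rested on array 2 of week 0, without which its trend was -0.04 (limma adjusted p = 0.875); the call was also lost without array 2 of week 3 (-0.61), array 1 of week 9 (-0.63), array 1 of week 12 (-0.69) or array 2 of week 12 (-0.73). Fmo2 and Aldh1a1 also lost their calls without the week 0 array, with trends of 0.26 and 0.21 (adjusted p = 0.0532 and 0.0628), and Aldh1a1 without array 2 of week 12 (0.21, adjusted p = 0.0603). Cbr3 and Ephx1 still passed without it, with 0.55 and 0.43 (adjusted p = 0.0117 and 0.00155).

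Ephx1 climbed from 11.41 and 11.38 at week 0 to 11.79 and 11.84 at week 12, with no array of weeks 6 to 12 below one of weeks 0 and 3. Fmo2, the main flavin monooxygenase of lung, read 12.93 and 12.68 at week 0 and 13.12 and 13.10 at week 12. Aldh1a1 read 12.69 and 12.63 at week 0 and 12.86 and 12.91 at week 12. Cbr3 read 7.88 and 8.01 at week 0 and between 8.13 and 8.71 later. Cbr3 also moved with the array's own brightness, with r = -0.72 to the array median over 36 arrays after subtraction of the strain means. With the array median as a covariate its trend was 0.30 and still passed (limma adjusted p = 0.0276).

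In untreated C3H lungs limma called 0 of 10 members over the weeks and 0.863% of all genes, with 4 members and 1813 genes (12.1%) at an unadjusted p under 0.05. Fmo2 had 0.30 ± 0.08, Aox1 0.29 ± 0.08, Aldh1a1 0.19 ± 0.06 and Ephx1 0.18 ± 0.06 (SE, limma adjusted p = 0.0609, 0.0711, 0.159 and 0.201). Fmo2 passed under 4 other settings, with trends from 0.30 to 0.32 (adjusted p from 0.0155 to 0.0449). Aox1 passed with the C3H arrays alone, with array weights and with the array median as a covariate (adjusted p = 0.0399, 0.0127 and 0.0415). Aldh1a1 and Ephx1 passed with array weights (adjusted p = 0.044 and 0.0467). Without array 2 of week 3 in untreated C3H the trend of Fmo2 was 0.35 and passed (adjusted p = 0.0297), as it did without either untreated week 0 array (adjusted p = 0.0459) or NNK week 6 array (adjusted p = 0.0466) of A/J. Aox1 passed without either of the latter (adjusted p = 0.0477). The trends of the strains differed by 0.48 ± 0.16 for Cbr3 and 0.26 ± 0.09 for Ephx1, and neither difference passed (adjusted p = 0.119 and 0.127). Of all genes 1.32% passed in that comparison, 1.10% with a higher trend in A/J, and 0 members did, with 2 members and 2507 genes at an unadjusted p under 0.05. It was added after the trends had been seen. The Cbr3 difference passed without array 2 of week 3 or array 1 of week 9 in untreated A/J (0.57 and 0.55, adjusted p = 0.0194 and 0.0414). For Aldh3a1 the difference was -0.58 ± 0.35 (SE, adjusted p = 0.414). It was 0.09 without the outlying array 2 of week 0 (adjusted p = 0.832) and -1.25 without array 1 of that week, which leaves the outlying array alone (adjusted p = 0.000121). For Fmo2 the difference was 0.05, with a 95% interval from -0.18 to 0.28.

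**Figure D4:**
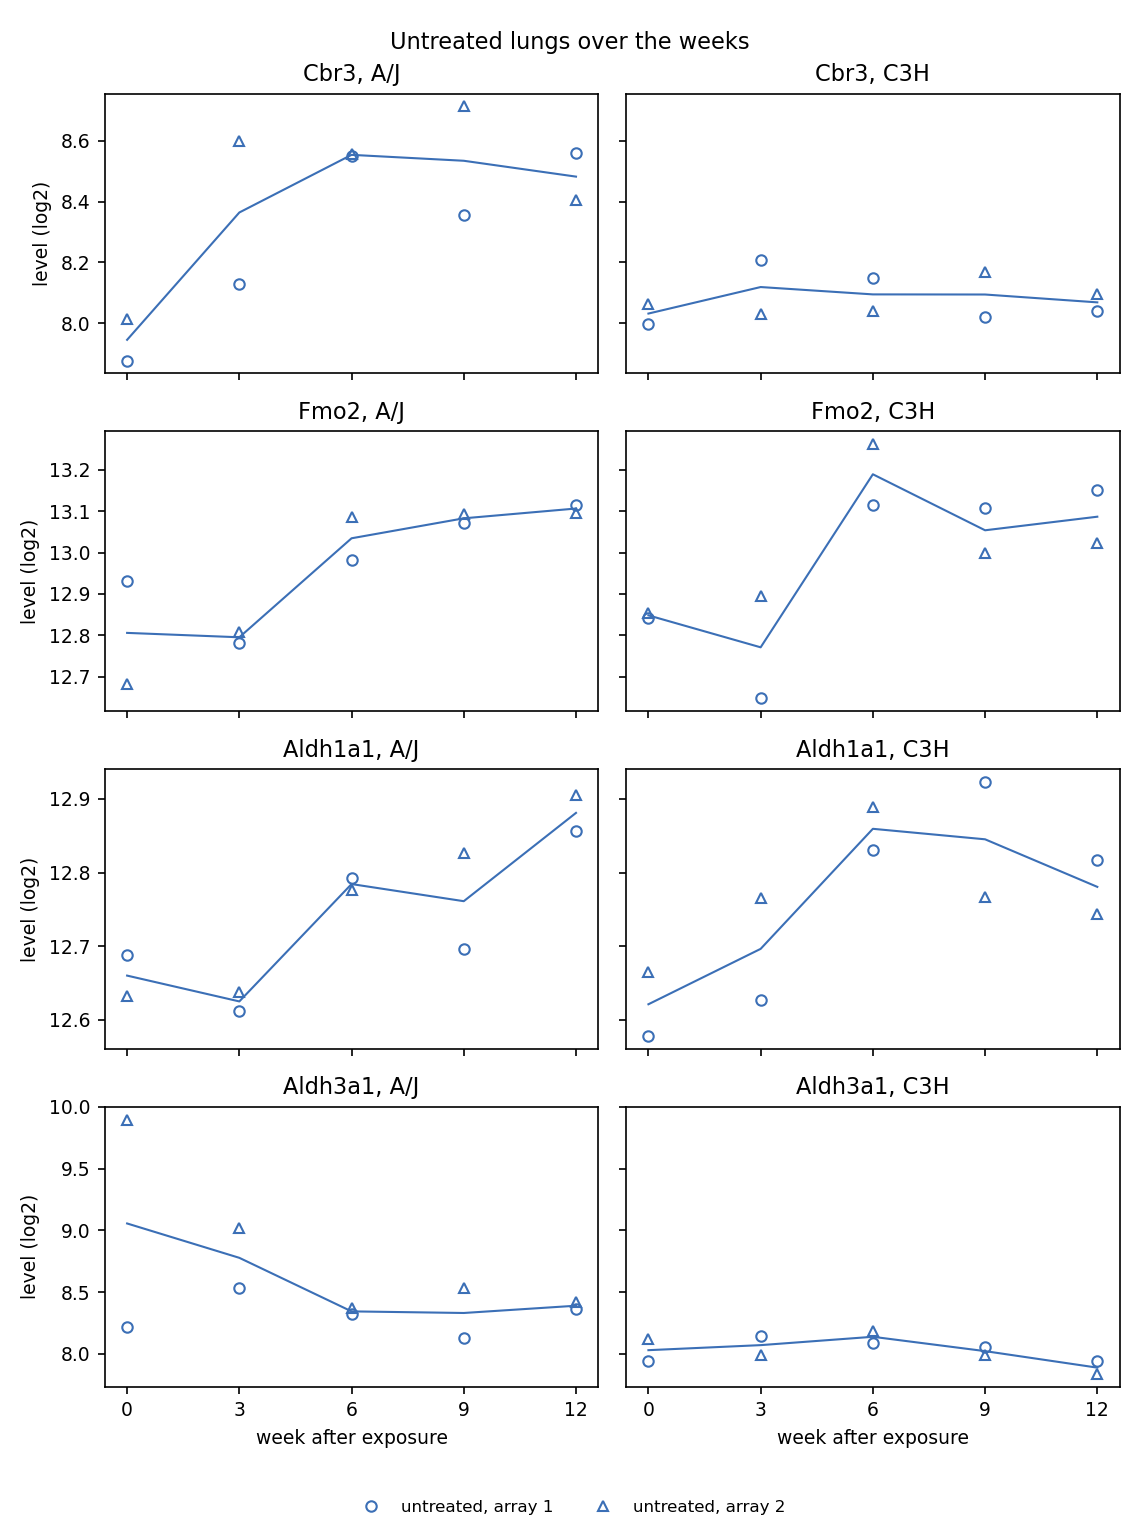
Level (log2) of Cbr3, Fmo2, Aldh1a1 and Aldh3a1 in untreated lungs against week, A/J left and C3H right; circles and triangles are arrays 1 and 2 and lines join their means. Cbr3 runs from 7.88 to 8.71 in A/J and from 8.0 to 8.21 in C3H, and the Aldh3a1 value of 9.90 at week 0 stands apart.

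Some members varied together. Over all 36 arrays, after subtraction of the strain means, Pearson's r was 0.70 between Aldh1a1 and Fmo2, 0.65 between Cbr3 and Ephx1, 0.56 between Aldh1a1 and Ephx1, and -0.58 between Aox3 and Ephx1. These values describe arrays that share weeks and treatment, and array 2 of week 0 in A/J is among them. Cbr3, Cbr1 and Ephx1 also ran against the array median, with r = -0.72, -0.49 and -0.39, and the other members lay from -0.24 to 0.27. The part of array brightness in these correlations was not tested. The genes most like Ephx1 were Dglucy (r = 0.87), Hes6 (0.83) and Psrc1 (0.82). Those most like Aox3 were Slc4a5 (0.83), the club cell paraoxonase gene Pon1 (0.82) and Atrnl1 (0.81). Slc4a5 and Atrnl1 were also among the 7 genes with both NNK arrays below in all weeks of both strains. For Aldh1a1 the nearest was Gsta3, a glutathione transferase gene (0.84), and for Fmo2 it was Tmtc1 (0.90). Pepd led for Cbr3 (0.88), Mettl1 for Cbr1 (0.80), Gjb2 for Aldh3a1 (0.86), Cav2 for Hsd11b1 (0.74), Ubr2 for Aox1 (0.73) and Smcr8 for Cbr2 (0.72).

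Of 71 related enzyme genes 64 had their own probe set and 50 were tested. In A/J, NNK raised 5 and lowered 0, against 7.44% and 2.60% of all genes, and the list's median change was 0.04 against 0.01 over all genes. The aldo-keto reductase gene Akr1b8 rose by 0.50 ± 0.06, the alcohol dehydrogenase gene Adh1 by 0.19 ± 0.04, Aldh1a7, a close relative of Aldh1a1, by 0.16 ± 0.05 and the dicarbonyl reductase gene Dcxr by 0.14 ± 0.04 (SE, limma adjusted p = 1.98e-05, 0.00298, 0.036 and 0.0365). Aldh4a1, which acts in proline breakdown, was the fifth, with 0.22 (adjusted p = 0.0448), and is named because it completes the count. In C3H limma called 0 of the 50. None of the 5 genes for the molybdenum cofactor, which aldehyde oxidases need, passed for NNK in A/J.

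Between untreated strains 12 of the 50 related genes were higher and 18 lower in A/J, shares close to the 19.8% and 36.3% of all genes. Akr1c14, a hydroxysteroid and carbonyl reductase gene, was higher by 0.86 ± 0.05. Mocs1, of molybdenum cofactor synthesis, differed by -0.44 ± 0.04, the retinal reductase gene Dhrs3 by -0.42 ± 0.04 and Dhrs1 by -0.31 ± 0.03 (SE, limma adjusted p = 4.22e-12, 2.18e-09, 4.13e-09 and 3.55e-08 for the 4 genes). The same 4 led in NNK-treated lungs, with 0.65, -0.45, -0.48 and -0.36. Over the weeks 7 of the 50 rose in untreated A/J, no larger a share than the 17.5% of all genes, among them the soluble epoxide hydrolase gene Ephx2 by 0.62, the xanthine oxidoreductase gene Xdh by 0.37, Aldh16a1 by 0.25 and the retinal dehydrogenase gene Aldh1a3 by 0.22. Xdh was the 1 that rose in C3H, by 0.53 (adjusted p = 0.0263).

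Cell type markers moved beside the NNK changes of Aox3 and Ephx1 in A/J. Of 12 club cell markers 2 rose and 3 fell: Pon1 fell by 0.42, Lypd2 by 0.39 and Cckar by 0.22, while Upk3a rose by 0.37 and Kcnk1 by 0.20. The defining club cell genes Scgb1a1 and Cyp2f2 had -0.01 and -0.07 (limma adjusted p = 0.946 and 0.246). Both are among the brightest genes, with means of 13.76 and 13.84, where quantile normalization sets a level by rank. Their values and the summed levels, in which bright genes weigh most, therefore do not show stability. Passed or not, 3 of the 12 club cell markers were higher with NNK and 9 lower. The log2 of the summed club cell level ran from 15.42 to 15.76 in untreated and from 15.40 to 15.74 in NNK-treated A/J, and from 15.43 to 15.67 and from 15.40 to 15.51 in C3H. Of 12 ciliated cell markers 9 rose in A/J, with sums from 13.37 to 13.74 untreated and 13.46 to 13.87 with NNK, and in C3H 0 of 12 passed, with sums from 13.35 to 13.56 and 13.37 to 13.63. Of 11 alveolar type 2 markers 5 rose in A/J, with sums from 16.41 to 16.56 and 16.45 to 16.60, and of 10 endothelial markers 4 fell, with sums from 15.46 to 15.65 and 15.46 to 15.57. Among the other lists in A/J, 2 of 6 neutrophil markers rose, 1 of 8 alveolar macrophage markers rose and 2 fell, 1 of 10 fibroblast markers rose, 1 of 4 squamous markers rose and 5 of 5 cornified skin markers fell. The median skin change was -5.20 at week 6, where both untreated arrays had high Lor, Krt1, Krt10 and Hrnr, and -0.19 at week 3. Limma called 0 markers of alveolar type 1 cells, B and T cells, mesothelium, liver, adipose tissue, heart and thyroid in A/J, and 0 of any list in C3H. The part of these cell types in the enzyme changes was not tested.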

How the data were processed

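Total lung RNA was measured on Affymetrix arrays. The authors deposited linear intensities for each probe set. The submitters' processing notes name PLIER and Affymetrix Expression Console; their settings and a genome build are not given in the sources used here. They were turned to log2(intensity + 16), which understates changes of dim genes, and quantile-normalized, because array medians spanned 0.268. Of 35556 probe sets 21789 had 1 gene symbol; the brightest per gene was kept and the 14953 of 19938 genes at or above the 25th percentile were tested. Probe sequences were not used here, so reads of close relatives (Aldh1a1 and Aldh1a7, Cbr1 and Cbr3) by 1 probe set were not checked. Strain variants under the probes were not checked either.

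All comparisons came from 1 fit in limma 3.58.1 (R 4.3.3) with a mean per group, 18 residual degrees of freedom and Benjamini-Hochberg adjustment over all 14953 genes at 0.05. NNK changes are means of 4 weekly differences, and week trends are linear contrasts printed as change over 12 weeks. The number of arrays limits the precision. The scripts were tested on simulated arrays. Members, lists and comparisons were chosen with earlier results of these data known. Named besides the 10 members were up to 4 called genes with the smallest p per comparison from the related enzymes. The 3 genes most like a member were also taken, of which the leading ones are printed. Genes with both NNK arrays above in all weeks of both strains are named in full. Alternatives were the deposited scale, a pseudocount of 1, other filters, variance models, the array number as a block, array weights, probe set means, each strain alone, removal of arrays with Lor above 10 and of each array in turn; the array median as a covariate was added after seeing the data.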

Additional observations from a re-analysis of the deposited data

Results flagged for a closer look

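Of 40 sets of 8 or 10 arrays (each member by strain and treatment), 2 held an array far from the others, and chance alone flags about 1 in 20 such sets. Array 2 of week 0 in untreated A/J lungs had Aldh3a1 at 9.90, with the next array at 9.02. Array 2 of week 6 in NNK-treated A/J lungs had Ephx1 at 12.27, with the next array at 12.04.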

How the results depend on the processing

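The A/J changes of Aox3 and Ephx1 kept direction and call under 11 alternatives (-0.46 to -0.44 and 0.28 to 0.33) and in all 36 fits without 1 array (-0.52 to -0.39 and 0.28 to 0.35). Over 3704 values of the 10 genes under alternatives, 0 calls reversed and 81 uncalled values changed sign. The cause of the changes below was not tested, except that the filter at the 50th percentile leaves Cbr3 and Aldh3a1 untested. By design, leaving out an array of a group outside a comparison moves its p-values and calls, not its differences.

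The number of members called for NNK in C3H was 2 with array weights and 1 with C3H alone, in place of 0. The strain difference in NNK-treated lungs had 3 in place of 5 with the filter at the 50th percentile and 7 on the deposited scale. The A/J week trend had 3 with that filter and 2 without arrays of high Lor, in place of 5. The C3H week trend, 0 before, had 4 with array weights and 1 on the deposited scale, with that filter, trended robust variances, C3H alone or the array median as a covariate. A/J at week 3 had 2 in place of 1 with that filter, trended robust variances or the covariate, at week 6 it had 1 in place of 2 with A/J alone, and at week 9 it had 0 in place of 1 with array weights or A/J alone. C3H at week 6 had 1 in place of 0 with array weights.

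Leaving out each array in turn gave 2 to 3 members for NNK in A/J, 0 to 2 in C3H and 0 to 1 for their difference. It gave 7 for the untreated strain difference, 4 to 7 for the NNK-treated one, 2 to 5 for the A/J trend, 0 to 2 for the C3H trend and 0 to 1 for the difference in trends. By week in A/J it gave 1 to 2, 1 to 2, 0 to 1 and 0, in C3H 0, and for the F test 0 to 1 in A/J and 0 in C3H.

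Counts over all genes moved more. NNK in A/J went from 1502 to 675 with array weights, 638 without arrays of high Lor and 483 with A/J alone. NNK in C3H went from 12 to 31 and 41 with array weights and C3H alone. The difference in NNK change went from 169 to 97 without a filter, 111 with array weights and 7 without arrays of high Lor. The A/J trend went from 3410 to between 1678 and 5280, the C3H trend from 129 to between 85 and 594 and the difference in trends from 197 to between 47 and 329. Counts by week in A/J went from 53 to between 7 and 258, from 1087 to as low as 170, from 231 to between 4 and 476 and from 11 to between 3 and 18.

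With the array number as a replicate block the members called were 2 for NNK in A/J, 0 in C3H and 7 and 5 for the strain differences, and no member's call changed. The numbers do not pair the arrays: over 153 pairs of groups the correlation of deviations ran from -0.38 to 0.424, with a median of 0.017.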
